A study of Mus musculus with 12 samples.

Results

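The oxidative phosphorylation subunits described here are the genes named as subunits of the respiratory chain and of ATP synthase, taken from both genomes of the cell. They were chosen by symbol: mt-Nd, mt-Co, mt-Cytb and mt-Atp, the Nduf subunits of series a, b, c, s and v, Sdha to Sdhd, Uqcr, Cox4 to Cox8 and Atp5, without pseudogene names and with at least 10 counts summed over 6 libraries. Of 52535 gene entries, 102 matched; 6 pseudogene names were left out, and 3 genes (Cox8b, Cox8c and Ndufs3, with 4 counts each) fell under the minimum. The 93 subunits that remained were 13 mitochondrially encoded and 80 nuclear genes. Atp5sl (Dmac2), known as an assembly factor of complex I, is among them by its symbol and is counted with the subunits. Of these, 91 passed the filter on low counts and were tested, and Cox7b2 and mt-Atp8 did not pass it.

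The libraries came from E14, a mouse embryonic stem cell line, grown in serum medium with LIF and the kinase inhibitors called 2i. The study compared cells labelled Bcat1-KO clone 1 (2 libraries), Bcat1-KO clone 2 (2 libraries) and wild type, WT (2 libraries). Each knockout group is a single clone, so an effect of the genotype and a property of that clone cannot be told apart within it. A further 6 samples of a differentiation time course were not analysed here.

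Complex I takes electrons from NADH and complex II from succinate. Ubiquinone carries them to complex III, cytochrome c carries them to complex IV, and oxygen receives them there. Complexes I, III and IV pump protons across the inner mitochondrial membrane, and ATP synthase uses the gradient. The mitochondrial genome encodes core subunits of complexes I, III, IV and ATP synthase, while complex II is wholly nuclear. Pluripotent stem cells are known for high glycolysis beside a working respiratory chain. Bcat1 encodes the cytosolic enzyme that transaminates branched-chain amino acids.

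Gene counts summed to between 11976149 and 13923262 per library, from RNA depleted of ribosomal RNA. Expression is given as CPM, which are counts scaled to a common library size, with library sizes adjusted by the TMM method. Bcat1 itself stood at 616 and 661 CPM in clone 1, 582 and 578 CPM in clone 2, and 601 and 613 CPM in WT, so its RNA level does not separate the labels and does not check the knockout. The 8 embryonic stem cell markers summed to 5768 to 5892 CPM in clone 1, 6194 to 6195 CPM in clone 2 and 6380 to 6567 CPM in WT. Of these 8, edgeR called 3 in clone 1, against 21.9% of all genes, and 1 in clone 2, against 17.9%. Fibroblast or feeder markers summed to 7.66 to 9.34 CPM in clone 1, 2.95 to 3.95 CPM in clone 2 and 3.08 to 4.65 CPM in WT, with Lum, Dcn, Postn and Acta2 at 0 in every library. Trophoblast markers summed to 60.4 to 75.7 CPM in clone 1, 55.0 to 57.2 CPM in clone 2 and 80.5 to 91.0 CPM in WT. The largest part of this sum was Tfap2c, with a mean of 44.6 CPM over all libraries. Primitive endoderm markers summed to 7.89 to 8.39 CPM in clone 1, 4.64 to 7.03 CPM in clone 2 and 2.47 to 4.35 CPM in WT. Stem cell and trophoblast sums were thus lower in both clones than in WT, and primitive endoderm sums higher. Of 3 tested fibroblast or feeder markers, 2 were called in clone 1 and 1 in clone 2, and likewise of 3 tested trophoblast markers. Of 4 tested primitive endoderm markers, 1 was called in each clone. The part of these marker levels in the results below was not tested. Whether the replicates were separate cultures is not in the labels. The p-values therefore reflect the spread among these 6 libraries alone, and that spread may be technical.

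The first clone 1 library stood apart in the nuclear subunits. Its median deviation over the 79 tested nuclear subunits, from each gene's mean over the 6 libraries, was -0.20 on the log2 CPM scale, and in the second clone 1 library it was 0.07. Clone 2 libraries stood at -0.09 and 0.05, and WT libraries at 0.04 and 0.09. The 20 nuclear subunits with up to 1000 bases of exon deviated more, by -0.28 and 0.13 in clone 1, -0.16 and 0.05 in clone 2, and 0.07 and 0.17 in WT. In 233 short protein-coding genes that are no subunits, the first library of each clone was lowest too, with deviations of -0.11 and 0.12 in clone 1, -0.08 and 0.03 in clone 2, and 0.02 and 0.09 in WT. Reads without a feature were 5.35% of the first clone 1 library, against 4.14% to 4.80% in the other five libraries, and ambiguous reads were 6.96%, against 7.62% to 9.10%. The part of these read shares in the results below was not tested. The 2 libraries of each group were farther apart than sampling alone gives: the chi-square per subunit was 42.9 in clone 1, 11.5 in clone 2 and 35.8 in WT, against 8.79, 3.27 and 3.57 per gene over all genes. At equal relative spread this chi-square grows with a gene's counts, and the subunits include mt-Co1 with 673210 counts. The values therefore do not show that subunits varied more between replicates than other genes.

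**Figure D1:**
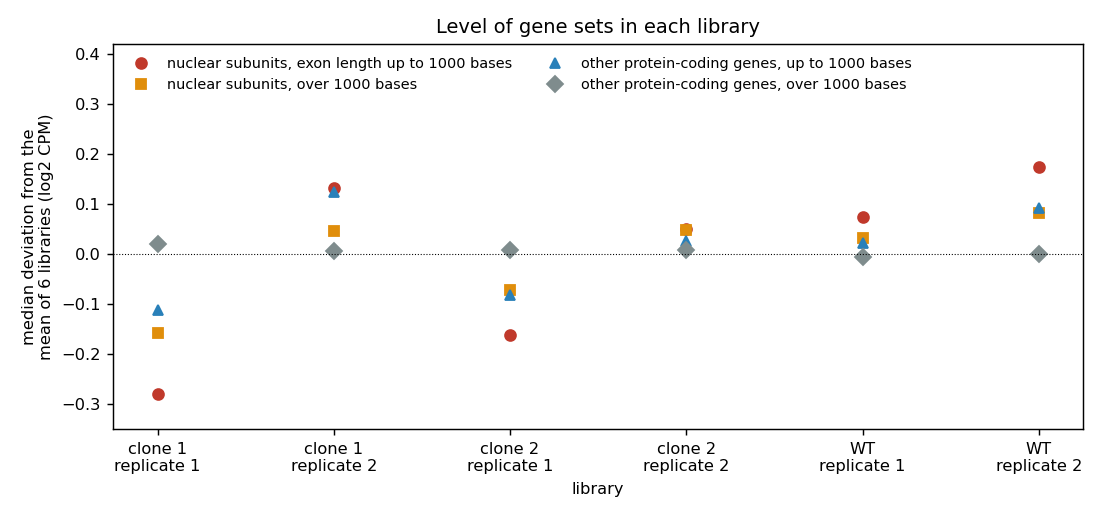
Median deviation of gene sets from the mean of the 6 libraries (y axis, log2 CPM) in each library (x axis); each marker is the median over the genes of a set. The first library of each clone lies lowest for nuclear subunits. Those with up to 1000 bases of exon lie at -0.28 in clone 1 and -0.16 in clone 2. Longer ones lie at -0.16 and -0.07.

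Counts of several mitochondrial genes depend on near-identical stretches elsewhere in the genome. The reference annotation (GENCODE M21, GRCm38) holds pseudogenes on chromosome 1 that match 7 of the 13 mitochondrial genes at 98% identity or more. They cover 99.6% of the mt-Atp6 transcript, 99.6% of mt-Co2, 99.9% of mt-Co3, 99.1% of mt-Nd3, 99.0% of mt-Nd4l, 63.6% of mt-Nd4 and 31.3% of mt-Co1. A stretch of mt-Nd3 and one of mt-Co1 are shown beside their copies, since they show how little separates a gene from its copy. Each pair holds 1 differing base, in capitals, with positions counted from 1 at the 5′ end of the mitochondrial gene and the mitochondrial base given first.
mt-Nd3 (chrM:9459-9491, plus strand): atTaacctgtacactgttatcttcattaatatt
Gm28438 (chr1:24613087-24613119, minus strand): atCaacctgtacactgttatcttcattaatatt
mt-Co1 (chrM:6390-6423, plus strand): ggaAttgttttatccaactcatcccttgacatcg
Gm29216 (chr1:24616155-24616188, minus strand): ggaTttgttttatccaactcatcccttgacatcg
The difference is T3C in the first pair, the sole mismatch in 345 aligned bases, and A1066T in the second pair, the sole mismatch in 483 aligned bases. Over the whole length of mt-Atp6, mt-Co2 and mt-Co3 the copies had no mismatch in 678, 681 and 783 bases. The copies Gm10925, Gm28661 and Gm28437 carried 10066, 15461 and 10156 counts over the 6 libraries, more than the mitochondrial genes they match. Reads that aligned to several places were 15.6% to 16.6% of each library and are not in the gene counts. The levels of these 7 genes are therefore uncertain, while mt-Nd1, mt-Nd2, mt-Nd5, mt-Nd6 and mt-Cytb have no such copy in the annotation. Nuclear subunits were affected too. Of 79 compared, 11 had 50% or more of a transcript in near-identical stretches of other genes, and 46 had under 5%. Among the 11 were Atp5g2 (100%), Atp5h (99.8%), Atp5f1 (80.7%), Cox5b (77.6%) and Ndufa12 (71.0%). The levels of these 11 are uncertain as well.

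Promoter sequence was available for 67 of the 80 nuclear subunits (RefSeq, GRCm38.p6). Both promoters shown here belong to complex IV: Cox6b1 was lower in both clones, and Cox6a1 was the most abundant nuclear subunit per kilobase of all annotated exons. The stretches run 5′ to 3′ on the gene's strand from 250 bases before the RefSeq start to the end of the last motif match, with motif matches in capitals. The GENCODE genes start further upstream, so the last 16 bases shown for Cox6b1 and the last 14 for Cox6a1, which hold the GABPA matches, lie inside the annotated genes.
Cox6b1 (chr7:30626136-30626364, minus strand): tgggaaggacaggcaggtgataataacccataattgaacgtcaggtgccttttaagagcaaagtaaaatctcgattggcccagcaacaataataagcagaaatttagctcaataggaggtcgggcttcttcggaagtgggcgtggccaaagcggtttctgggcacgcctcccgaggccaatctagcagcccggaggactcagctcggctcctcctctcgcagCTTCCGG
Cox6a1 (chr5:115348968-115349208, minus strand): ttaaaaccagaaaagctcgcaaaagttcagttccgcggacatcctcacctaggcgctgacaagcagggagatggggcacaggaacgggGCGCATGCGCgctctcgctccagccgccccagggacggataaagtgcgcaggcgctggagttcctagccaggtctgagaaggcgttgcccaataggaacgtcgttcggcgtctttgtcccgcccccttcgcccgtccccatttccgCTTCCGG
The motifs searched on both strands were GCGCATGCG for NRF1, CCGGAAG for GABPA and AAGATGGC for YY1, which are factors known to drive respiratory genes. Cox6a1 holds the NRF1 motif on both strands at overlapping positions, since the motif nearly equals its own reverse complement, and a GABPA motif on the strand opposite the gene. Cox6b1 holds a GABPA motif on the strand opposite the gene. The NRF1 motif was found in 6 of 67 subunit promoters (8.96%), against 1.64% of the promoters of 27025 genes. The GABPA motif was found in 11 (16.4%), against 7.83%, and the YY1 motif in 2 (2.99%), against 1.83%. Of 12 nuclear subunits that differed from WT in either clone, 8 had a promoter in the table. Among these 8, Cox6b1 held the GABPA motif and Atp5sl the YY1 motif, and the NRF1 letters were not in the windows.

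The subunits were 3.20% to 3.25% of gene counts in clone 1, 3.12% to 3.13% in clone 2 and 3.21% to 3.46% in WT. Mitochondrially encoded subunits took 2.09% and 1.90% in clone 1, 1.94% and 1.88% in clone 2, and 2.23% and 1.95% in WT. Nuclear subunits took 1.16% and 1.30% in clone 1, 1.19% and 1.25% in clone 2, and 1.23% and 1.26% in WT. The ratio of mitochondrial to nuclear counts was 1.80 and 1.47 in clone 1, 1.62 and 1.50 in clone 2, and 1.82 and 1.54 in WT. The ratios of the 3 groups overlapped, and the replicates of clone 1 lay farther apart than the group means. In each group the first library had the higher ratio. Both clones lay below WT among the first libraries and among the second libraries. Whether equal replicate numbers mark a shared batch is not in the labels.

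Levels of different genes were compared per kilobase of exon, where the length joins the exons of all annotated transcripts of a gene. It can exceed the length of a transcript. For Atp5b it was 4237 bases, against 1916 for an annotated transcript, and for Cox6a1 it was 702 against 571. The order below therefore holds for this length alone, and other lengths were not used. The most abundant subunit per length was mt-Co1, the catalytic core of complex IV, at 5674 CPM per kb over all libraries. It was followed by mt-Nd1 at 3646, mt-Cytb at 2109, mt-Nd2 at 1454 and mt-Nd5 at 1158 CPM per kb. The highest nuclear subunit of each complex was Cox6a1 of complex IV at 598 CPM per kb, Atp5b (the catalytic beta subunit of ATP synthase) at 551, Uqcr10 of complex III at 206, Ndufb11 of complex I at 110 and Sdhd (a membrane anchor of complex II) at 87.5. None of these 5 nuclear subunits differed from WT in either clone (edgeR adjusted p of 0.0711 to 0.961). At the low end stood mt-Atp8, with 2 and 5 counts in clone 1, 3 and 6 in clone 2, and 10 and 4 in WT.

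Taking the 4 Bcat1-KO libraries against WT, 1 of 91 subunits differed at an adjusted p under 0.05 (edgeR's quasi-likelihood test, Benjamini-Hochberg), which is 1.10%, against 6.36% of all 14946 genes tested (4.25% higher and 2.11% lower). The single call was Ndufa12, an accessory subunit of complex I (chromosome 10, 94198720 to 94221443, GRCm38). It had 36.4 and 37.1 CPM in clone 1, 34.5 and 35.2 CPM in clone 2, and 49.1 and 44.0 CPM in WT. All 4 knockout libraries lay below both WT libraries, with a log2 fold change of -0.38 ± 0.10 (SE) and an adjusted p of 0.0498. The call was lost with any 1 of the 6 libraries left out, where adjusted p reached 0.415. A near-identical pseudogene, Gm15920, covers 71.0% of an Ndufa12 transcript. It had 372 and 502 counts in clone 1, 379 and 368 in clone 2, and 453 and 464 in WT, with a log2 fold change of -0.10 ± 0.13 (adjusted p = 0.702).

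Fold changes of the subunits lay mostly below 0 in both clones, and most were small. Over the 91 subunits the median log2 fold change was -0.12 in clone 1 and -0.10 in clone 2, against -0.0010 and -0.0017 over all genes tested. The clone contrasts share the WT libraries. For nuclear subunits the median was -0.12 in clone 1 and -0.09 in clone 2. Without the first clone 1 library the clone 1 median was -0.0026, and without the second it was -0.27. Without the first clone 2 library the clone 2 median was -0.02, and without the second it was -0.16. For the 12 tested mitochondrial genes the median was -0.13 in clone 1 and -0.19 in clone 2. Over the 5 mitochondrial genes with no near-identical copy it was -0.0090 in clone 1 and -0.11 in clone 2. In these bulk samples fewer cells of a type and less RNA per cell cannot be told apart.

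In clone 1, 9 of 91 subunits differed from WT (9.89%), against 21.9% of all genes, and each of the 9 was lower, against 9.53% of all genes called lower. In clone 2, 10 subunits differed (11.0%, against 17.9% of all genes): 9 were lower, against 7.81% of all genes, and 1 was higher, against 10.1%. Called lower in both clones were mt-Nd1, mt-Co2, Ndufa12 and Cox6b1. The number called in each clone moved when a library was left out, both for the subunits and over all genes. Both ranges are given further below, and at their top the subunits' share of calls exceeds that of all genes. By DESeq2, 7 subunits were called in each clone, all lower, and the counts over all genes are given there too.

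**Figure D2:**
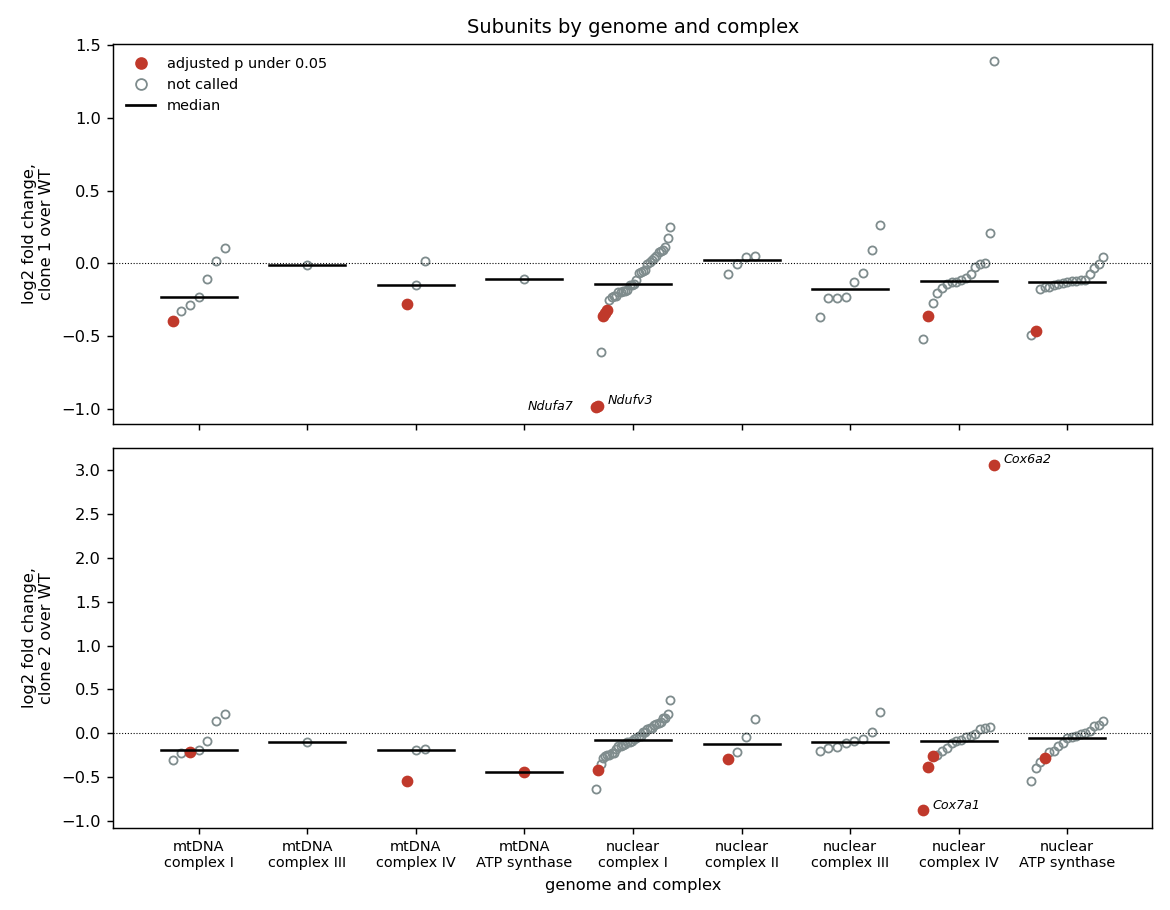
Log2 fold change (y axis) of each tested subunit in clone 1 (upper panel) and clone 2 (lower panel) over WT, by genome and complex (x axis). Each point is a gene, filled red where called, and the bar is the group's median. Most points lie between -0.5 and 0.5, with Ndufv3 and Ndufa7 near -1 in clone 1; the fitted value of Cox6a2 in clone 2 rests on few counts.

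Among the mitochondrially encoded genes, mt-Nd1 and mt-Co2 were lower in both clones. mt-Nd1 encodes a core membrane subunit of complex I. It stood at 3140 and 2932 CPM in clone 1, 3488 and 3397 CPM in clone 2, and 4193 and 3785 CPM in WT. Every library of either clone lay below both WT libraries. The log2 fold change was -0.39 ± 0.07 (SE, adjusted p = 7.64e-04) in clone 1 and -0.21 ± 0.07 (adjusted p = 0.0471) in clone 2. The clone 1 call held in all 13 alternatives with an adjusted p of at most 0.0391, while the clone 2 call was lost in 5 of them, among them DESeq2 (adjusted p = 0.0503).

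mt-Co2 encodes the complex IV subunit that receives electrons from cytochrome c. It stood at 137 and 151 CPM in clone 1, 112 and 128 CPM in clone 2, and 177 and 173 CPM in WT, with both clones below WT. The log2 fold change was -0.28 ± 0.09 (adjusted p = 0.0314) in clone 1 and -0.55 ± 0.09 (adjusted p = 3.80e-04) in clone 2. The clone 2 call held in all 13 alternatives, and the clone 1 call was lost in 6. Its copy Gm28661 moved alike, at -0.37 (adjusted p = 0.0108) in clone 1 and -0.65 (adjusted p = 1.73e-04) in clone 2. With gene and copy summed, the values were -0.33 in clone 1 and -0.61 in clone 2.

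mt-Atp6, the proton-channel subunit of ATP synthase, was lower in clone 2. It stood at 47.6 and 53.9 CPM in clone 1, 39.4 and 41.0 CPM in clone 2, and 56.9 and 52.6 CPM in WT. Clone 2 lay below the other libraries, and clone 1 overlapped WT. The log2 fold change was -0.45 ± 0.11 (adjusted p = 0.00828) in clone 2 and -0.11 ± 0.11 (adjusted p = 0.509) in clone 1. Its copy Gm10925, identical over 678 bases, gave -0.36 in clone 2 (adjusted p = 0.0508).

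The other mitochondrial genes did not pass the test in either clone. mt-Co1 had 8904 and 8157 CPM in clone 1, 8473 and 8131 CPM in clone 2, and 10176 and 8753 CPM in WT, where clone 1 overlapped WT and clone 2 lay below it. mt-Nd2 had 1495 and 1360 CPM in clone 1, 1434 and 1419 CPM in clone 2, and 1812 and 1533 CPM in WT, with adjusted p of 0.0575 and 0.0656 in clones 1 and 2. mt-Cytb, the mitochondrial subunit of complex III, had 2558 and 2363 CPM in clone 1, 2308 and 2294 CPM in clone 2, and 2623 and 2328 CPM in WT. These values show WT replicates that differ by as much as the groups do for mt-Co1, mt-Nd2 and mt-Cytb. mt-Nd5 and mt-Nd6, which lie on opposite strands and overlap at their ends, had log2 fold changes of 0.14 and 0.21 in clone 2 and 0.02 and 0.11 in clone 1. mt-Nd4 gave -0.10 in clone 1 and -0.19 in clone 2, and mt-Co3 gave 0.01 and -0.18. mt-Nd3 and mt-Nd4l had 3.01 to 5.16 CPM in all libraries, with SE of 0.26 to 0.30 on the log2 scale.

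**Figure D3:**
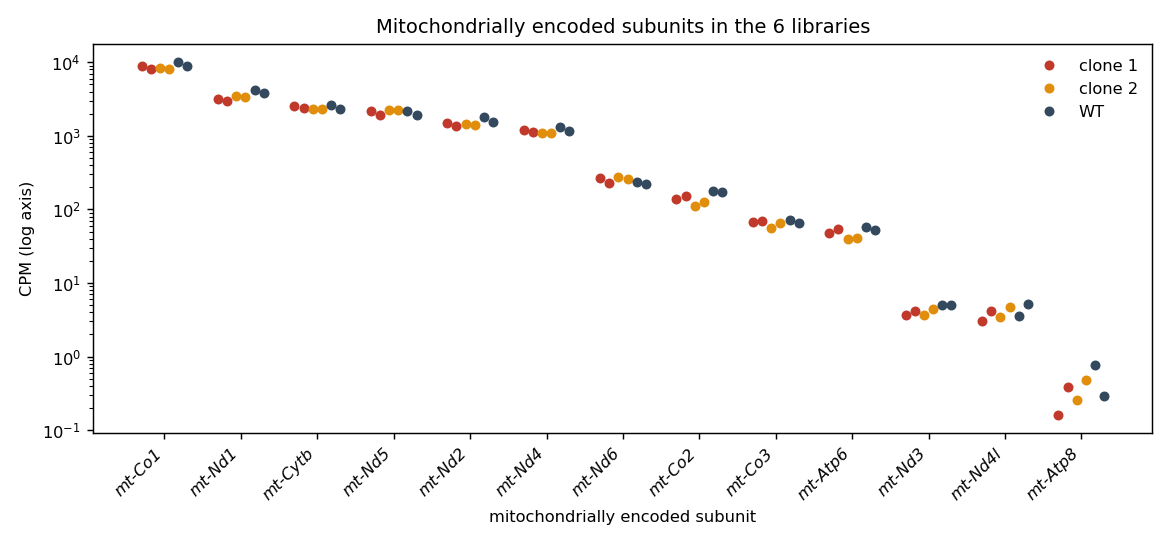
CPM (y axis, log axis) of the 13 mitochondrially encoded subunits (x axis) in each library, by group. mt-Nd1 and mt-Co2 lie lower in both clones than in WT, and mt-Atp6 lies lower in clone 2.

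Complex I has a core of catalytic subunits and many accessory subunits around it. Of 34 nuclear complex I subunits, 5 were lower in clone 1 (14.7%, against 9.53% of all genes), among them Ndufv3, Ndufa7, Ndufa12 and Ndufs8, and 1 in clone 2 (2.94%, against 7.81%), which was Ndufa12. The median log2 fold change of the 34 was -0.14 in clone 1 and -0.08 in clone 2. The largest falls were those of a pair of genes on chromosome 17. Ndufv3, an accessory subunit of the NADH-binding module (31520115 to 31531331), had 43.8 and 47.4 CPM in clone 1, 93.1 and 108.9 CPM in clone 2, and 89.9 and 89.3 CPM in WT. Clone 1 lay below all other libraries, and clone 2 lay above WT. The log2 fold change was -0.97 ± 0.10 (adjusted p = 3.71e-06) in clone 1 and 0.17 ± 0.10 (adjusted p = 0.249) in clone 2.

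Ndufa7, another accessory subunit (chromosome 17, 33824572 to 33838317), had 70.0 and 94.7 CPM in clone 1, 132 and 146 CPM in clone 2, and 151 and 174 CPM in WT. Both clones lay below WT, and clone 1 lay below clone 2. The log2 fold change was -0.98 ± 0.12 (adjusted p = 1.62e-05) in clone 1 and -0.23 ± 0.12 (adjusted p = 0.193) in clone 2. Clone 2 exceeded clone 1 by 1.15 ± 0.10 for Ndufv3 (adjusted p = 1.13e-06) and by 0.75 ± 0.12 for Ndufa7 (adjusted p = 3.84e-04) on the log2 scale. These calls held in all 13 alternatives.

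Genes beside Ndufv3 and Ndufa7 moved with them in clone 1. The 20 nearest tested genes had a median log2 fold change of -1.05 around Ndufv3 and -0.60 around Ndufa7 in clone 1, against -0.16 and 0.0019 in clone 2. On the whole of chromosome 17, 125 of 720 tested genes were called lower in clone 1, against 1424 of all 14946 genes tested (9.53%). The other 4 subunits on the chromosome, Ndufb10, Ndufa11, Ndufv2 and Cox7a2l, had log2 fold changes of 0.25, 0.11, 0.0081 and -0.07 in clone 1 and passed the test in neither clone. The copy number of this stretch was not tested.

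**Figure D4:**
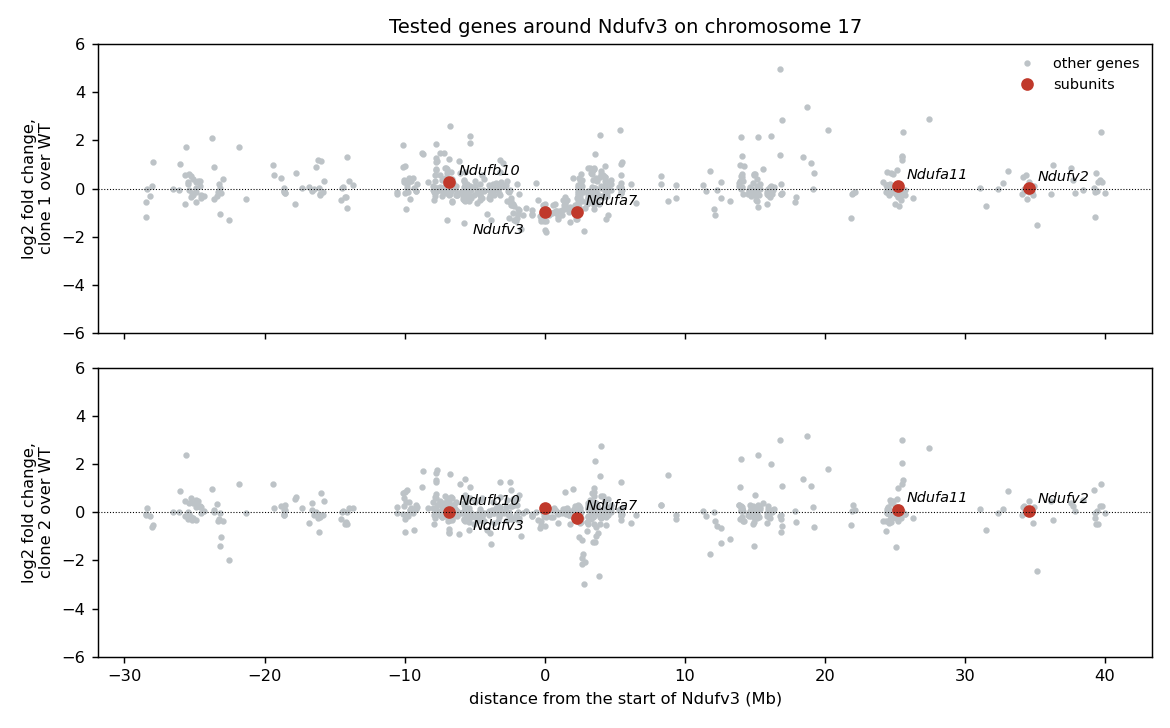
Log2 fold change (y axis) of 635 tested genes within 40 Mb of the start of Ndufv3 on chromosome 17, against distance in Mb (x axis), in clone 1 (upper panel) and clone 2 (lower panel) over WT. Subunits are red. In clone 1, Ndufv3 and Ndufa7 sit in a run of lowered genes, while Ndufb10 (0.25), Ndufa11 (0.11) and Ndufv2 (0.0081) lie outside it.

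Ndufs8 is a core subunit that carries electrons towards ubiquinone. It had 55.7 and 60.4 CPM in clone 1, 72.7 and 68.9 CPM in clone 2, and 65.5 and 79.5 CPM in WT. Clone 1 lay below WT, at -0.32 ± 0.11 (adjusted p = 0.0412), and clone 2 overlapped it, at -0.03 ± 0.11. The difference between the clones did not pass the test (adjusted p = 0.0898), and the clone 1 call was lost in 6 alternatives. The core subunits Ndufs1, Ndufs7, Ndufv1 and Ndufv2 did not pass the test in either clone, and Ndufs7 gave -0.19 in clone 1 and -0.26 in clone 2. Ndufa12 was lower in each clone, at -0.34 ± 0.11 (adjusted p = 0.0339) in clone 1 and -0.42 ± 0.11 (adjusted p = 0.0139) in clone 2. The clone 1 call of Ndufa12 was lost in 7 alternatives and the clone 2 call in 3.

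Complex II oxidises succinate and links the chain to the citric acid cycle. Its 4 subunits had log2 fold changes between -0.07 and 0.05 in clone 1. Sdhc, a membrane anchor, was lower in clone 2, with 93.4 and 92.7 CPM in clone 1, 78.9 and 81.3 CPM in clone 2, and 96.9 and 99.2 CPM in WT. Its log2 fold change was -0.29 ± 0.09 (adjusted p = 0.0271), a call lost by DESeq2 and without either WT library or either clone 2 library. Sdha, the flavoprotein, had -0.05 in clone 2 and Sdhb, the iron-sulfur subunit, had 0.16.

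Complex III passes electrons from ubiquinol to cytochrome c. edgeR called none of the 8 nuclear subunits chosen by symbol in any comparison, and DESeq2 called none. Cyc1, which the symbols missed, is not among these 8 and is counted with the electron carriers below. At an unadjusted edgeR p under 0.05, 2 of the 8 passed in clone 1, against 5199 of all 14946 genes tested. In clone 2, 1 of the 8 passed, against 4603 of all genes. Uqcr10 came nearest, with 84.6 and 126 CPM in clone 1, 106 and 135 CPM in clone 2, and 134 and 137 CPM in WT (clone 1 adjusted p = 0.0711). Its first clone 1 library was far below the second.

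Complex IV reduces oxygen and has tissue forms of several nuclear subunits. Of 16 tested nuclear subunits, 1 was called in clone 1 (6.25%, against 21.9% of all genes), and it was lower. In clone 2, 4 of the 16 were called, against 17.9% of all genes, with 3 lower and 1 higher. Cox6b1, which faces the intermembrane space near the cytochrome c site, was lower in both clones (chromosome 7, 30616861 to 30626151). It had 139.9 and 179 CPM in clone 1, 144 and 169 CPM in clone 2, and 193 and 217 CPM in WT. All 4 knockout libraries lay below WT, although the replicates of each group were spread. The log2 fold change was -0.36 ± 0.11 (adjusted p = 0.0258) in clone 1 and -0.39 ± 0.11 (adjusted p = 0.0223) in clone 2. Each clone's call was lost without either WT library and without that clone's first library.

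Cox7a1, the heart and muscle form, had 9.26 and 16.2 CPM in clone 1, 7.93 and 11.8 CPM in clone 2, and 16.9 and 19.5 CPM in WT. The clones lay below WT, with a log2 fold change of -0.88 ± 0.23 (adjusted p = 0.0122) in clone 2 and -0.52 ± 0.22 (adjusted p = 0.105) in clone 1. The clone 2 call was lost without either WT library and without the first clone 2 library. Cox6c was lower in clone 2, at -0.26 ± 0.08 (adjusted p = 0.0345), with 169 and 184 CPM in clone 1, 153 and 165 CPM in clone 2, and 191 and 191 CPM in WT. That call was lost without either WT library and without either clone 2 library. Cox6a2, a further heart and muscle form, was the single subunit higher in clone 2. It had 5 and 3 counts in clone 1, 11 and 14 counts in clone 2, and 3 and 0 counts in WT. The ratio of clone 2 to WT was 9.02, with an exact 95% counting interval of 2.75 to 46.7 (adjusted p = 0.0229, lost in 4 alternatives). Its exon overlaps Itgad on the opposite strand over 10.3% of its length.

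The common forms of complex IV were the more abundant in these cells. Per kilobase, Cox4i1 stood at 198 and Cox4i2 (known from lung and the hypoxia response) at 3.85 CPM per kb. Cox6a1 stood at 598 and Cox6a2 at 0.708 CPM per kb. Cox6b1 stood at 245 and the testis form Cox6b2 at 49.7 CPM per kb. Cox7a2 stood at 98.4 and Cox7a1 at 25.4 CPM per kb. Cox7a2l, set beside them by its symbol alone, stood at 61.2 CPM per kb. Cox7b stood at 112 and the testis form Cox7b2 at 0.852 CPM per kb. Cox8a stood at 466 CPM per kb, and Cox8b and Cox8c had 4 counts each in all. None of Cox4i1, Cox4i2, Cox6b2, Cox7a2, Cox7a2l, Cox7b and Cox8a passed the test in either clone, with log2 fold changes between -0.21 and 0.21. Cox7b2 had 7 and 4 counts in clone 1, 6 and 15 in clone 2, and 0 and 3 in WT, and was not tested.

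ATP synthase had 17 nuclear genes by symbol, of which 1 was lower in each clone (5.88%, against 9.53% of all genes in clone 1 and 7.81% in clone 2). Atp5sl, the assembly factor that carries such a symbol, had 33.8 and 44.1 CPM in clone 1, 41.8 and 44.0 CPM in clone 2, and 52.5 and 55.0 CPM in WT. Its log2 fold change was -0.46 ± 0.12 (adjusted p = 0.0117) in clone 1 and -0.33 ± 0.12 (adjusted p = 0.0757) in clone 2. The clone 1 call was lost without either WT library and without the first clone 1 library. Atp5g3, a source of the membrane ring, was lower in clone 2, with 271 and 310 CPM in clone 1, 267 and 269 CPM in clone 2, and 327 and 323 CPM in WT. Its log2 fold change was -0.28 ± 0.08 (adjusted p = 0.0249), lost without either WT library and without either clone 2 library. The catalytic subunits Atp5a1 and Atp5b had log2 fold changes of -0.11 and -0.0061 in clone 1, and of -0.04 and 0.09 in clone 2.

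**Figure D5:**
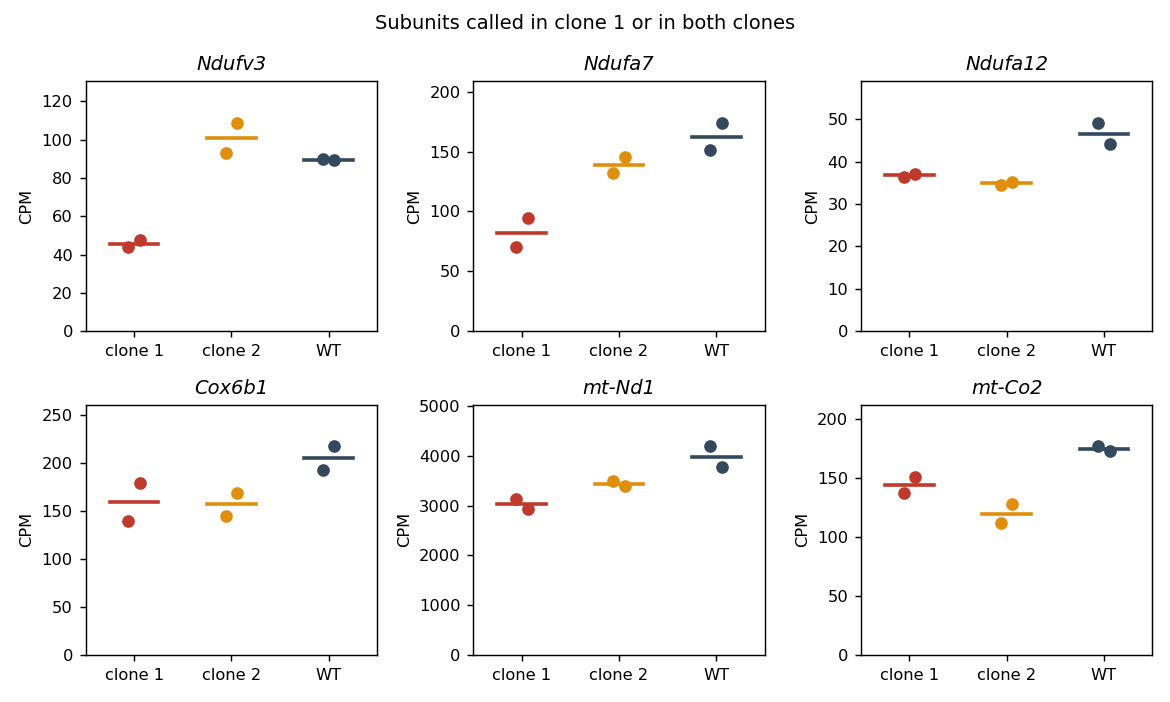
CPM (y axis, from 0) of subunits called in clone 1 or in both clones, in clone 1, clone 2 and WT; each point is a library and each bar the mean of 2. Ndufv3 and Ndufa7 are low in clone 1, while mt-Nd1, mt-Co2, Ndufa12 and Cox6b1 are lower in both clones than in WT.

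Between the clones, 3 subunits differed (3.30%, against 14.3% of all genes, 6.62% higher and 7.71% lower). Ndufv3 and Ndufa7 were higher in clone 2 than in clone 1, and mt-Atp6 was lower, at -0.34 ± 0.11 (adjusted p = 0.0482). The mt-Atp6 call was lost in 10 of 13 alternatives. Leaving out a library moved the number called between the clones, both for the subunits and over all genes, as given further below.

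Groups that did not overlap were common in this design. In clone 1, 29 of 93 subunits (4 mitochondrial and 25 nuclear) lay wholly below WT, against 28.8% of all genes, and 4 lay wholly above it, against 30.6%. In clone 2, 37 (8 mitochondrial and 29 nuclear) lay wholly below WT, against 30.0% of all genes, and 12 (2 mitochondrial and 10 nuclear) lay wholly above it, against 31.3%. Over all 4 knockout libraries, 20 (4 mitochondrial and 16 nuclear) lay below WT, against 16.7% of all genes, and 3 lay above it, against 18.3%.

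Genes that assemble the complexes were described from a list of 52, of which 48 were tested. In the genotype comparison 1 was lower (2.08%, against 2.11% of all genes). In clone 1, 3 were lower and 1 was higher (8.33% called, against 21.9% of all genes). In clone 2, 8 were lower (16.7%, against 7.81% of all genes called lower and 17.9% called at all). The list's median log2 fold change was -0.04 in clone 1 and -0.06 in clone 2. Acad9, a complex I assembly factor, had 43.6 and 38.5 CPM in clone 1, 36.8 and 36.0 CPM in clone 2, and 58.3 and 56.2 CPM in WT. All knockout libraries lay below WT, with a log2 fold change of -0.56 ± 0.10 for the genotype (adjusted p = 0.0143). Cmc1 and Coa6, which act in building complex IV, were lower in clone 2, at -0.94 ± 0.22 (adjusted p = 0.00642) and -0.60 ± 0.15 (adjusted p = 0.0109). Coa6 was also lower in clone 1, at -0.46 ± 0.15 (adjusted p = 0.0365), and Timmdc1, a complex I assembly factor, was higher there by 0.46 ± 0.13 (adjusted p = 0.0178). Sdhaf4, a complex II assembly factor, was lower in clone 2 than in clone 1 (-0.84 ± 0.26, adjusted p = 0.0403). DESeq2 called Acad9 alone in clone 1, Acad9, Cmc1, Coa5 and Foxred1 in clone 2, and none of the list between the clones. The calls of Coa6, Timmdc1 and Sdhaf4 were thus lost by DESeq2.

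Counted in either direction, factors that copy the mitochondrial genome or process its RNA were called at shares near those of all genes or below them. Of 31 tested, Polg was higher and Ssbp1 lower for the genotype (6.45%, against 6.36% of all genes). In clone 1, 5 fell and Polg rose (19.4%, against 21.9%), and in clone 2, 3 fell and Polg rose (12.9%, against 17.9%). Lower calls alone, which rest on few genes, lay above the shares of all genes. They were 1 of 31 for the genotype (against 2.11%), 5 of 31 in clone 1 (against 9.53%) and 3 of 31 in clone 2 (against 7.81%). Polg, the catalytic subunit of the mitochondrial DNA polymerase, had 132 and 133 CPM in clone 1, 161 and 155 CPM in clone 2, and 103 and 111 CPM in WT, with a log2 fold change of 0.44 ± 0.11 for the genotype (adjusted p = 0.0402). Ssbp1, the mitochondrial single-strand DNA-binding protein, had 61.8 and 65.0 CPM in clone 1, 63.8 and 66.1 CPM in clone 2, and 91.5 and 81.1 CPM in WT, at -0.43 ± 0.09 (adjusted p = 0.0211). Polg thus lay above WT in every knockout library, and Ssbp1 below it. Grsf1, an RNA-binding protein of mitochondrial RNA granules, was lower in clone 1 (-0.50 ± 0.07, adjusted p = 1.19e-04), and was higher in clone 2 than in clone 1 by 0.40 ± 0.07 (adjusted p = 0.00148). Elac2, which trims tRNA ends, was lower in clone 1 (-0.36 ± 0.09, adjusted p = 0.00667). Tfb1m, which methylates the small mitochondrial ribosomal RNA, was lower in clone 2 (-0.61 ± 0.16, adjusted p = 0.0123) and lower there than in clone 1 (-0.72 ± 0.16, adjusted p = 0.00477). By DESeq2 its call against WT was lost and its call between the clones was kept. That ribosomal RNA, mt-Rnr1, had 303 and 288 CPM in clone 1, 245 and 245 CPM in clone 2, and 335 and 280 CPM in WT, and was lower in clone 2 at -0.33 ± 0.09 (adjusted p = 0.0152). Ribosomal RNA was depleted before sequencing, so these levels are what the depletion left. The tRNA gene mt-Tp was lower in clone 1 (-0.61 ± 0.18, adjusted p = 0.0229), a call that DESeq2 did not make.

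Among 11 tested regulators of mitochondrial biogenesis, Tfe3, a lysosomal and metabolic transcription factor, was lower in clone 1 (-0.37 ± 0.09, adjusted p = 0.00991), and edgeR and DESeq2 called no other in either clone. At an unadjusted edgeR p under 0.05, 3 of the 11 passed in clone 1, against 5199 of all 14946 genes tested. In clone 2, 2 of the 11 passed, against 4603 of all genes. Among 22 genes for electron carriers and their synthesis, Coq2, which joins the ubiquinone ring to its tail, and Cyct, the testis cytochrome c, were higher in clone 1 (9.09%, against 12.4% of all genes called higher). Coq2 had 68.4 and 61.4 CPM in clone 1, 41.7 and 45.9 CPM in clone 2, and 46.1 and 44.7 CPM in WT, at 0.52 ± 0.11 (adjusted p = 0.00201). Cyct had 3.56 and 5.28 CPM in clone 1, 1.85 and 1.03 CPM in clone 2, and 1.31 and 1.48 CPM in WT, at 1.66 ± 0.37 (adjusted p = 0.00413). Both were lower in clone 2 than in clone 1, Coq2 at -0.57 ± 0.11 (adjusted p = 0.00154) and Cyct at -1.62 ± 0.38 (adjusted p = 0.00766). Of 7 further subunit genes that the symbols missed, Ndufa4l2, a hypoxia-inducible relative of Ndufa4, was higher in clone 1. It had 39.0 and 39.7 CPM in clone 1, 17.5 and 23.5 CPM in clone 2, and 15.3 and 18.5 CPM in WT, at 1.21 ± 0.15 (adjusted p = 1.63e-05), and clone 2 stood below clone 1 at -0.93 ± 0.14 (adjusted p = 3.42e-04). Its relative Ndufa4, a subunit of complex IV, had 150 to 166 CPM in all 6 libraries.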

How the data were processed

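The deposited values were counts of reads per gene, whole numbers not normalised by the authors, in 1 table per library. Per the submitters' processing notes the tools were DESeq2 1.18.1, HTSeq 0.9.1 and HISAT2 2.1.0, on build mm10, with no roles stated. Annotation and strand setting were not given in the sources used here. Overlapping and antisense genes therefore cannot be separated. Each table held 52535 gene entries and 5 HTSeq summary entries. The summary entries were used in neither library sizes nor tests.

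Counts were fitted with edgeR 4.0.16 (TMM, filterByExpr on groups, quasi-likelihood test, two-sided, Benjamini-Hochberg at 0.05 over 14946 genes) in R 4.3.3. The 4 Bcat1-KO libraries formed 1 genotype against WT, and a second fit with 3 groups gave the contrasts of each clone. The genotype fit counts 2 clones as 4 independent libraries, which can make its p-values too small. Alternatives were DESeq2 1.42.0, other size factors, no filter beyond 1 count, mitochondrial genes out of library sizes, a replicate block, the average of the clone contrasts, a fit restricted to the 4 libraries compared, and each library left out in turn. Summing near-identical copies, and leaving out genes with copies or overlaps, were added after seeing the data. The fits were tested on simulated counts.

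Named genes were all mitochondrial subunits, called nuclear subunits (up to 8 per comparison), the most abundant nuclear subunit per length of each complex, isoform pairs of complex IV and up to 3 called genes per list. A few further subunits (Sdha, Sdhb, Ndufs7, Atp5a1, Ndufa4) were named after their values were seen, and 1 called subunit is not reported here by name. Members and lists were chosen with earlier results of these data known. Of the 93 members, 92 had a position in GENCODE M21 (GRCm38), where Atp5sl is named Dmac2. Near-identical copies came from blastn 2.17.0 on its transcripts at 98% identity. Library deviations used log2(CPM + 0.5). Neighbours were 10 tested genes on each side. Intervals cover counting error only. Figures used matplotlib 3.10.9.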

Additional observations from a re-analysis of the deposited data

Results flagged for a closer look

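The clone contrasts of 3 subunits differed from each other by a test of the difference itself, clone 2 minus clone 1, on the log2 scale. Ndufv3 differed by 1.147 (edgeR adjusted p = 1.13e-06) and Ndufa7 by 0.7528 (adjusted p = 3.84e-04). Both lie on chromosome 17, where the 20 nearest tested genes differed between the clones by a median of 0.87 around Ndufv3 and 0.57 around Ndufa7. mt-Atp6 differed by -0.3371 (adjusted p = 0.0482), and its identical copy Gm10925 by -0.29 (adjusted p = 0.130). With the counts of mt-Atp6 and its copy summed, the difference was -0.30 (adjusted p = 0.0735).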

How the results depend on the processing

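Calls of single subunits depended on the libraries and on the fitting choices. The ends of the ranges below need not come from the same fit for subunits and for all genes. At the top of each clone's range the subunits' share of calls exceeds that of all genes. The same holds for clone 2 with only the 4 libraries compared. All-gene counts are not given for the no-filter clone fits, the genotype fit by DESeq2 and the copies-summed fit. Those subunit counts therefore have no share beside them. Of 9 subunits called in clone 1, 3 kept their call in all alternatives run (Ndufv3, Ndufa7 and mt-Nd1), of 10 in clone 2 1 did (mt-Co2), of 3 between the clones 2 did (Ndufv3 and Ndufa7), and the genotype call of Ndufa12 did not. For the genotype, 4 subunits were called by DESeq2, 7 with no filter, 12 with the mean of both clone contrasts, 2 with copies summed and 0 to 3 with a library left out. Genes called for the genotype were 951, against 1752 with no filter, 3226 with the mean of both contrasts and 75 to 944 with a library left out (75 and 78 without a WT library). For clone 1, 16 subunits were called with no filter and 4 to 43 with a library left out, and genes called were 2163 by DESeq2 and 1511 to 4260 with a library left out. For clone 2, 18 subunits were called with no filter, 28 with only the 4 libraries compared and 1 to 28 with a library left out. Genes called in clone 2 were 1777 by DESeq2, 4112 with only the 4 libraries and 1106 to 4129 with a library left out. Between the clones, 2 to 26 subunits were called with a library left out, and genes called were 1358 by DESeq2 and 949 to 3085 with a library left out.

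Without replicate numbers that mark a shared batch, the replicate block tests only a shared number. Over 13678 genes, deviations of same-numbered libraries correlated at 0.10, 0.02 and 0.18. These correlations do not describe the subunits alone. In each group the median of the nuclear subunits was lower in the first library than in the second. With the block, 647 genes and 1 subunit (not Ndufa12) were called for the genotype, 20 subunits in clone 1, 23 in clone 2 and 13 between the clones. The counts over all genes in these clone contrasts are not given here, so the subunit counts cannot be set against them.

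The median of the mitochondrial genes without copies was -0.056 for the genotype, -0.0090 in clone 1 and 0.11 between the clones. With a library left out, the median over all tested mitochondrial genes ran from -0.26 to -0.080 for the genotype and from -0.29 to -0.10 in clone 2. Leaving out the first clone 1 library turned Cox5a in clone 1 to 0.26 (adjusted p = 0.0333), against -0.33 without the second. Leaving out the second turned the clone difference of Atp5k to 0.60 (adjusted p = 0.00167) and of Ndufa11 to 0.35 (adjusted p = 0.0108), against -0.54 and -0.30 without the first. The cause was not tested. Subunits with few counts (Ndufb2, Cox6a2, Cox7b2, mt-Atp8) could show large differences alone.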

Other observations

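Some subunits stood far below partners of the same complex. Uqcrc1 and Uqcrc2 encode the core proteins of complex III, which the complex holds in equal number. Per length, Uqcrc1 stood at 5.55 CPM per kb and Uqcrc2 at 60.0 CPM per kb. Uqcrc1 had 248 and 288 counts in clone 1, 229 and 349 in clone 2, and 323 and 328 in WT. Ndufb2, an accessory subunit of complex I, had 19 and 25 counts in clone 1, 16 and 25 in clone 2, and 43 and 26 in WT, at 0.355 CPM per kb. Ndufs3, a core subunit of complex I, had 4 counts over the 6 libraries. Of the Ndufs3 exons, 4.04% lie over Kbtbd4 on the opposite strand. Other genes cover 7.94% of the Ndufb2 exons, and near-identical stretches of other genes cover 50.8% of an Ndufb2 transcript. The levels per length also depend on the exon lengths used. These were 5628 bases for Ndufb2, 4135 for Uqcrc1 and 2552 for Uqcrc2, against 455, 1653 and 1896 for a transcript of each. How the counting treated these genes was not tested.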
